A study of Danio rerio with 30 samples.

Results

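Collagen genes of whole zebrafish larvae were followed across exposure to 3 parabens. The set comprised every gene whose symbol is col, a type number, the letter a and a chain number, with at least 10 reads in at least 3 libraries. The deposited table held 31846 symbols, of which 53 matched the pattern, and 49 had enough reads and form the set. The members just inside the read limit were col27a1b and col28a1b, each with 10 reads in 4 libraries, and col22a1 with 6. The 4 genes outside it were col10a1b with 24 reads over all libraries, col21a1 with 32, col24a1 with 81 and col5a2b with 152. By type number the members fell into 8 fibrillar genes (types I, V and XXVII), 10 cartilage genes (types II, IX, X and XI) and 9 basement membrane genes (types IV, XV and XVIII). The remaining genes were 8 of types VI and XXVIII, 7 of the fibril-associated types, 3 of type VIII, 2 of type VII and 2 of the membrane-spanning type XVII. The set held no member of the fibrillar types III and XXIV. Types II and XI also form fibrils and were placed with cartilage because their fibrils are those of that tissue.

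Collagens are extracellular proteins of 3 chains wound around each other, each chain the product of a gene of its own or of a shared gene. Chains are hydroxylated and folded in the endoplasmic reticulum, exported, trimmed by proteases outside the cell and joined by lysyl oxidases. Type I gives skin, bone and tendon their tensile strength, type II with types IX and XI builds cartilage and the notochord sheath, and type X marks chondrocytes that have enlarged before bone forms and, in zebrafish, also bone-forming cells. Type IV forms the sheet under epithelia, around muscle and around vessels, and types XV and XVIII join that sheet to the tissue next to it.

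The larvae were of the AB wild-type strain and were taken whole at 120 hours post fertilization. Some were untreated (Control) and the others were kept in 1 of 3 preservatives, the methyl (MtP), ethyl (EtP) or propyl (PrP) ester of p-hydroxybenzoic acid, whose alkyl chains differ in length. Each compound was given at the dose labels BMD5, BMD5/10 and BMD5/50, whose concentrations the sources used here do not give, and each of the 10 groups had 3 libraries. The labels do not say how many larvae went into a library, or whether replicates were separate clutches. Total counts were 9711814 to 24468093 per library, and 18543 genes passed the filter on low counts, among them 48 members. The member left untested was col28a1b, a type XXVIII gene.

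The 10 libraries numbered 1, one from each group, stood apart from the 20 numbered 2 and 3. In a model with group and replicate number, 56.4% of all genes tested differed between them at an adjusted p under 0.05. This difference is described first because every comparison of groups contains it.

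In the control larvae the collagen genes summed to 824, 1136 and 1187 TPM (a deposited level scaled for transcript length and library total) in replicates 1, 2 and 3. Over all 30 libraries the sum was 0.0492% to 0.172% of all TPM, with a mean of 0.11%. TPM was the scale for comparing genes with each other. Cartilage genes made up 45.6% ± 4.49 (SD, n = 30) of the collagen TPM and fibrillar genes 39.1% ± 4.57. Basement membrane genes made up 5.11% ± 1.79.

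Type I was the leading fibrillar type. The gene col1a1a (chromosome 3, bases 23221047 to 23239458, plus strand, in the deposited coordinates, whose build no source used here names) had 144, 167 and 191 TPM in the 3 control libraries. Its paralog col1a1b (chromosome 12, 3095699 to 3133483, minus strand) had 103.8, 137.4 and 149.6 TPM, and col1a2 (chromosome 19, 40983221 to 41002980, plus strand), the gene of the other chain, had 85.8, 100.02 and 112.4 TPM. In each of the 3 libraries col1a1a was above col1a1b and col1a1b above col1a2, while across libraries the ranges of neighbours in that order overlapped. The type V genes, whose chains set the width of type I fibrils, were lower: col5a1 had a control mean of 13.5 TPM ± 0.88 (SD, n = 3), col5a3b 11.1 ± 2.06 and col5a2a 8.98 ± 1.72. The fibrillar genes col27a1b and col5a3a were near the floor, with means of 0.16 and 0.12 TPM.

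Among cartilage genes col2a1a (chromosome 8, 21195420 to 21219473, plus strand), the main type II gene, had 97.9, 152 and 152 TPM in the control libraries. Its paralog col2a1b (chromosome 11, 32007 to 55224, minus strand) was lower in all 3, at 38.2, 40.2 and 40.4 TPM. Genes of the type IX chains, which sit on the surface of type II fibrils, followed: col9a1b had 49.3, 120.6 and 138.3 TPM, col9a2 had 45.3, 76.8 and 85.0, and col9a3 had 29.0, 62.9 and 52.0. The type IX gene col9a1a was lower, with a control mean of 12.1 TPM ± 1.97 (SD, n = 3). The type XI gene col11a1a (mean 36.7 TPM) was above col11a2 (11.5) and col11a1b (4.96). At the low end col10a1a (chromosome 17, 15542077 to 15546862, minus strand), the type X gene, had 0.35, 0.40 and 0.33 TPM, or 10, 13 and 12 reads.

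In the basement membrane class the leading type IV genes were col4a5 (chromosome 7, 51103232 to 51194430, plus strand), with 14.3, 15.7 and 13.9 TPM, and col4a6 (chromosome 7, 50920437 to 51102479, minus strand), with 5.75, 4.19 and 4.65. These neighbours lie head to head with 752 bases between their gene models. The widely used chains col4a1 and col4a2 were near the floor, at 0.13 TPM ± 0.08 and 0.22 ± 0.10 (SD, n = 3), and the pair col4a3 and col4a4 was at 0.53 ± 0.10 and 0.26 ± 0.05. The gene models of col4a3 and col4a4 overlap by 538 bases on opposite strands, and no source used here says whether counting used strand, so reads there may be shared. The type XV gene col15a1b (chromosome 2, 23936954 to 24022085, minus strand) had 18.17, 13 and 11.59 TPM, and the type XVIII gene col18a1a (chromosome 9, 41821613 to 41979505, plus strand), whose cleaved end is known as endostatin, had 11.4, 10.0 and 10.5. By TPM, which is not scaled between libraries, both were highest in control replicate 1, where the type I and type II genes were lowest. By counts scaled to the library's effective total, col18a1a was instead lowest in replicate 1 in all 10 groups, Control included.

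Of the other classes, the fibril-associated genes were led by col14a1b (29.6 TPM ± 4.42, SD, n = 3) and col12a1a (19.5 ± 4.98), and the membrane-spanning class by col17a1a (17.2 ± 2.03), a component of the anchoring complexes of epidermal cells. Next came col6a3 of type VI (12.97 ± 0.52), whose product forms beaded filaments, col7a1 of the anchoring fibrils under epidermis (6.06 ± 1.40) and col8a1a of the type VIII network (3.56 ± 1.61).

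**Figure D1:**
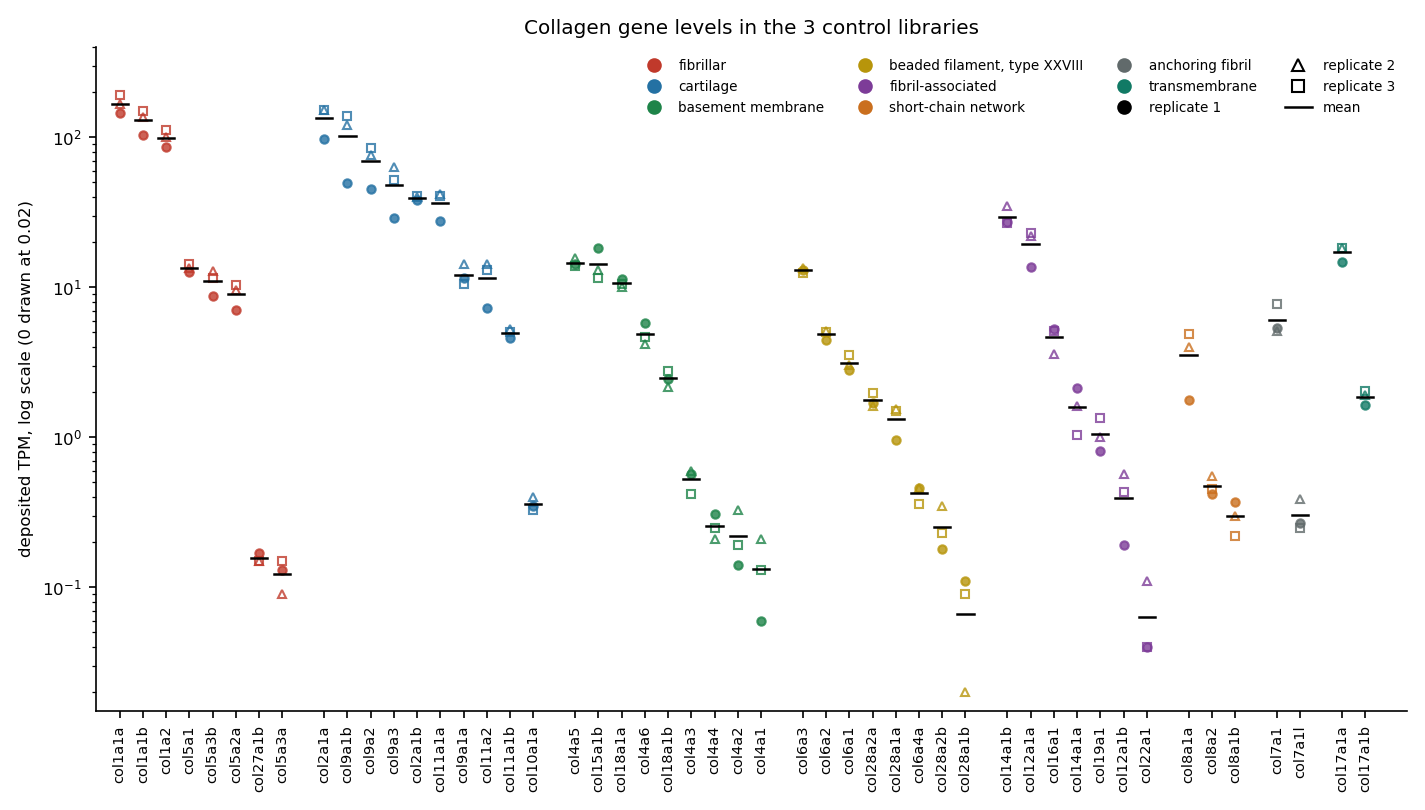
Deposited TPM (vertical axis, log scale) of the 49 collagen genes in the 3 control libraries, grouped by class and ordered by mean within it; points are libraries and bars means. Type I and type II genes and the type IX genes col9a1b, col9a2 and col9a3 are at the top, col1a1a having a mean of 167. The type IX gene col9a1a is lower, with a mean of 12.1, and the type IV pair col4a1 and col4a2 is under 0.3.

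Ratios between partner chains varied little for some pairs and more for others. The ratio of col1a1a to col1a2 TPM ran from 1.4998 to 1.7644 over all 30 libraries, with a median of 1.62 in the libraries numbered 1 and 1.66 in those numbered 2 and 3. The ratio of col9a2 to col9a3 had medians of 1.48 and 1.49 in these sets, and that of col4a5 to col4a6 medians of 3.14 and 3.06. Other pairs had medians further apart by replicate number, with ranges that overlapped. The ratio of col5a1 to col5a2a had a median of 1.84 (range 1.54 to 2.19) in libraries numbered 1 and of 1.33 (range 0.99 to 1.85) in the others. That of col9a1b to col9a2 had medians of 1.15 (range 0.946 to 1.71) and 1.39 (range 0.993 to 1.63). Over all libraries the ratio of col6a1 to col6a2 ran from 0.463 to 0.951. For the pairs near the floor the ranges were wider, from 0.125 to 1.67 for col4a1 to col4a2 and from 0.86 to 3.52 for col4a3 to col4a4. The ratio of col2a1a to col1a1a had a median of 1.21 (range 0.679 to 1.91) in libraries numbered 1 and of 0.791 (range 0.539 to 1.09) in the others, so the ranges overlapped.

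Collagen genes were mostly lower in the libraries numbered 1. Of 48 members 43 were lower and 2 higher at an adjusted p under 0.05 (edgeR quasi-likelihood test, Benjamini-Hochberg over all genes), against 29.0% of all genes tested lower and 27.4% higher. The median log2 fold change of the members was −1.07 and that of all genes 0.03. In 17 members every library numbered 1 was below every library numbered 2 or 3, which held for 3.3% of all genes tested. In 27 members the library numbered 1 was the lowest of its group in all 10 groups, which held for 8.62% of all genes. In whole larvae, fewer cells of a type and less RNA per cell cannot be told apart. Nothing in the labels says what the replicate number stands for.

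The fibrillar class had a median log2 fold change of −1.30, with 7 of 8 genes lower. For col1a1a the libraries numbered 1 had 251 to 664 CPM (counts scaled to the library's effective total, used to compare libraries for the same gene), with a median of 461. Those numbered 2 and 3 had 803 to 1604, with a median of 1186. The ranges did not overlap, and the log2 fold change was −1.34 ± 0.12 (SE; adjusted p = 1.42e-08). The values of col1a1b (−1.33 ± 0.11) and col1a2 (−1.35 ± 0.12) were nearly the same. These are averages over groups that differed. For col1a1a replicate 1 less the mean of 2 and 3, in log2 CPM, ran from −0.61 under MtP BMD5/10 to −2.10 under PrP BMD5/10. In Control it was −0.76. The type V genes col5a2a (−1.54 ± 0.13), col5a3b (−1.28 ± 0.15) and col5a1 (−1.03 ± 0.08) and the type XXVII gene col27a1b (−1.18 ± 0.32) were lower too. The exception was col5a3a, at 0.03 ± 0.18, with an adjusted p of 0.895.

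All 10 cartilage genes were lower, with a median of −1.04. For col2a1a the libraries numbered 1 had 365 to 712 CPM (median 497) and the others 650 to 1132 (median 945). The sets overlapped through propylparaben BMD5, where replicate 1 had 712 CPM and replicate 2 had 650. Its log2 fold change of −0.83 ± 0.09 (SE; adjusted p = 1.59e-07) was the smallest in size of the class. Type IX and XI genes lay between −1.21 ± 0.17 (col9a1b) and −0.93 ± 0.13 (col9a1a). The type X gene col10a1a stood apart at −2.10 ± 0.38, an average over groups that differed. It had 0.282 to 0.98 CPM in libraries numbered 1 (median 0.62) and 0.619 to 11.4 (median 2.46) in the others. Its replicate 1 less the mean of 2 and 3, in log2 CPM, was −3.35, −4.14 and −2.91 under EtP BMD5, BMD5/10 and BMD5/50. In every other group this difference was smaller in size. In Control it was −0.44, the smallest in size of the class in that group. Counting types II and XI as fibrillar instead gave a median of −1.11 for the fibrillar and −1.04 for the cartilage class.

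Basement membrane genes were divided. The class median was −0.55, with 7 of 9 genes lower and 1 higher. For col4a5 the libraries numbered 1 had 64.1 to 84.2 CPM (median 74.8) and the others 83.9 to 144 (median 105), so the sets met at their edge. The log2 fold changes of col4a5 (−0.53 ± 0.07), col4a6 (−0.55 ± 0.08) and col18a1a (−0.57 ± 0.07) were close together. The genes near the floor, col4a1 (−1.7002 ± 0.346) and col4a2 (−1.38 ± 0.32), and col18a1b (−1.05 ± 0.13) were lower by more. The pair on chromosome 15 was near 0, with col4a3 at −0.27 ± 0.11 (adjusted p = 0.0371) and col4a4 at −0.18 ± 0.12, which was not called. The call of col4a3 was lost in 9 of the 30 fits that each left out 1 library.

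The type XV gene col15a1b was the only basement membrane member that was higher. It had 56.7 to 87.9 CPM in the libraries numbered 1 (median 67.7) and 50.4 to 67.1 in the others (median 56.1). Replicate 1 was the highest library in every group of the 10, although the 2 sets overlapped. The log2 fold change was 0.29 ± 0.05 (SE; adjusted p = 5.69e-05). The other higher member was the fibril-associated gene col14a1a, at 0.34 ± 0.08 (adjusted p = 5.36e-04), whose paralog col14a1b was lower at −1.02 ± 0.11.

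Most genes of the remaining classes were lower too. Every tested gene of types VI and XXVIII was lower (7 of 7, median −1.11), as were the 3 of type VIII (−1.20), the 2 of type VII (−1.03) and the 2 of type XVII (−1.47), and 5 of 7 fibril-associated genes were lower (−1.26). The lowest values were those of col22a1 (−2.20 ± 0.35), a gene of muscle-tendon junctions with at most 1.43 CPM in any library, col8a1a (−1.96 ± 0.33) and col17a1a (−1.703 ± 0.224). The fibril-associated col19a1 (−0.23 ± 0.14) was not called. Among libraries numbered 2 and 3 alone, the SD of log2 CPM was 0.11 for col15a1b, the steadiest member, and 1.11 for col10a1a, the most variable, with a median of 0.28 over the 48.

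**Figure D2:**
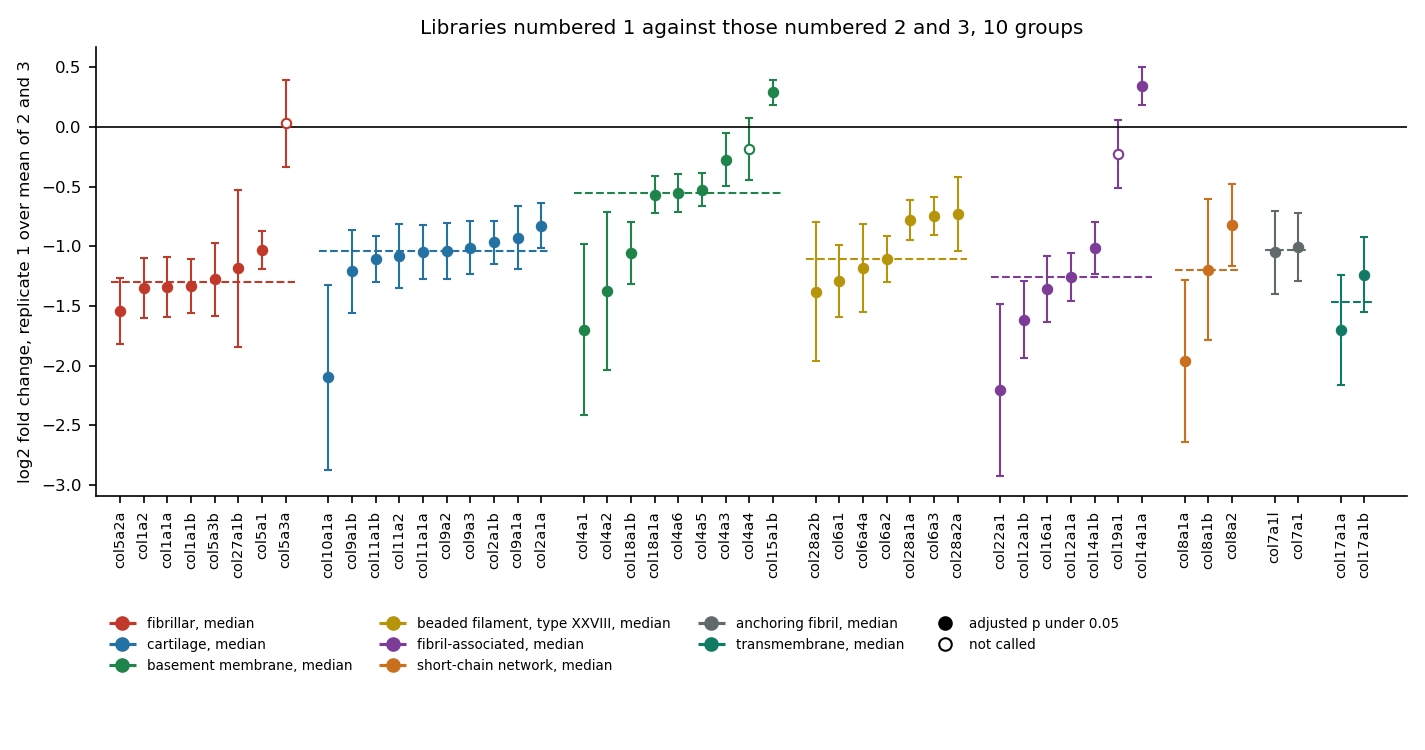
Log2 fold change of the libraries numbered 1 over the mean of those numbered 2 and 3 (vertical axis) for the 48 tested collagen genes by class; bars are 95% intervals, dashed lines class medians, filled points genes with an adjusted p under 0.05. The dashed medians are −1.30 for fibrillar, −1.04 for cartilage and −0.55 for basement membrane genes, and single genes spread widely within each class, from −2.10 for col10a1a to 0.29 for col15a1b across the 3.

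The size of these differences depends on the scale, because the deposited TPM had not been scaled between libraries as the CPM were. On TPM the ratio of libraries numbered 1 to the others had a median of 0.31 on the log2 scale over all genes tested and of −0.83 over the members, with 44 of 48 members below 0. Over all groups together the class medians kept their order among the 3 main classes, at −0.99 for fibrillar, −0.76 for cartilage and −0.28 for basement membrane genes. On this scale col4a4, at 0.15, changed sign, and col15a1b, col14a1a and col5a3a were above 0 on both scales. The summed TPM of basement membrane genes were 50.8 ± 2.55 (SD, n = 10) in libraries numbered 1 and 51.6 ± 6.89 (SD, n = 20) in the others. Fibrillar genes summed to 256 ± 62.4 and 532 ± 110, and cartilage genes to 349 ± 79.0 and 569 ± 89.7. As a share of collagen TPM, basement membrane genes were 5.61% to 10.9% in libraries numbered 1 and 3.41% to 4.85% in the others, with no overlap.

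Markers of several tissues moved in the same contrast, and their part in the collagen values was not tested. All 21 epidermis markers were lower (median log2 fold change −1.28), all 19 muscle markers (−0.89), all 15 tested liver markers (−2.40), 12 of 14 fibroblast markers (−0.79), 18 of 20 cartilage and bone markers (−0.91) and 5 of 7 notochord markers (−0.37). Of 15 neuronal markers 12 were higher and 2 lower (median 0.22). The mean log2 CPM of the epidermis markers was 4.40 to 6.16 in libraries numbered 1 and 6.18 to 7.09 in the others, and that of the fibroblast markers 3.72 to 4.19 and 4.52 to 5.20, with no overlap in either. For cartilage and bone markers the ranges were 2.66 to 3.32 and 3.49 to 4.36. The bone regulators runx2a and runx2b, with 4 and 5 reads in all, and the bone matrix gene bglap, with 85, had too few reads to be tested.

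Genes that make, export and hold collagens were counted in the same contrast. Of 19 folding and modifying enzymes 17 were lower and 0 higher, with a median of −0.48. They included the lysyl hydroxylase plod1a (−0.97 ± 0.10), the collagen chaperone serpinh1a (−0.91 ± 0.10) and the prolyl isomerase ppib (−0.18 ± 0.04). Of 8 export genes 3 were lower, among them the transcription factor creb3l2 (−0.78 ± 0.10) and its relative creb3l1 (−0.40 ± 0.10), while the cargo receptor mia3 was at 0.07 ± 0.04 and not called.

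Outside the cell, 8 of 9 procollagen processing genes were lower, such as the enhancer of C-proteinase pcolcea (−1.20 ± 0.12) and the C-proteinase bmp1a (−0.44 ± 0.06), and its paralog bmp1b was higher (0.26 ± 0.08). Of 8 lysyl oxidases 7 were lower, with loxl1 at −0.72 ± 0.08 and loxl3b at −0.62 ± 0.06. The proteoglycans and glycoproteins that bind fibrils were lower in 14 of 15 cases (median −1.23), with lum, the gene of lumican, at −1.31 ± 0.11, fmoda, a fibromodulin gene, at −1.33 ± 0.11, and sparc, that of osteonectin, at −0.83 ± 0.09. Of 9 receptors 5 were lower, among them itgb1a (−0.86 ± 0.08) and the kinase receptor ddr1 (−0.27 ± 0.06). Of 14 genes of collagen degradation, a list that includes inhibitors of the proteases, 6 were lower. Among them were the proteases mmp2 (−0.98 ± 0.11) and mmp14a (−0.91 ± 0.09) and the inhibitor timp2a (−0.35 ± 0.08).

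The proteins that share the basement membrane with type IV collagen were lower in 18 of 23 cases and higher in 2. The laminin chain gene lama4 (−0.79 ± 0.06) and nid1a of nidogen (−1.61 ± 0.13) were lower, and frem2a (0.39 ± 0.05), a gene of the membrane under the epidermis, and agrn, the gene of agrin (0.16 ± 0.07), were higher. The class median of these partners, −0.80, was below the −0.55 of the basement membrane collagens, a difference between the lists that was not tested.

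**Figure D3:**
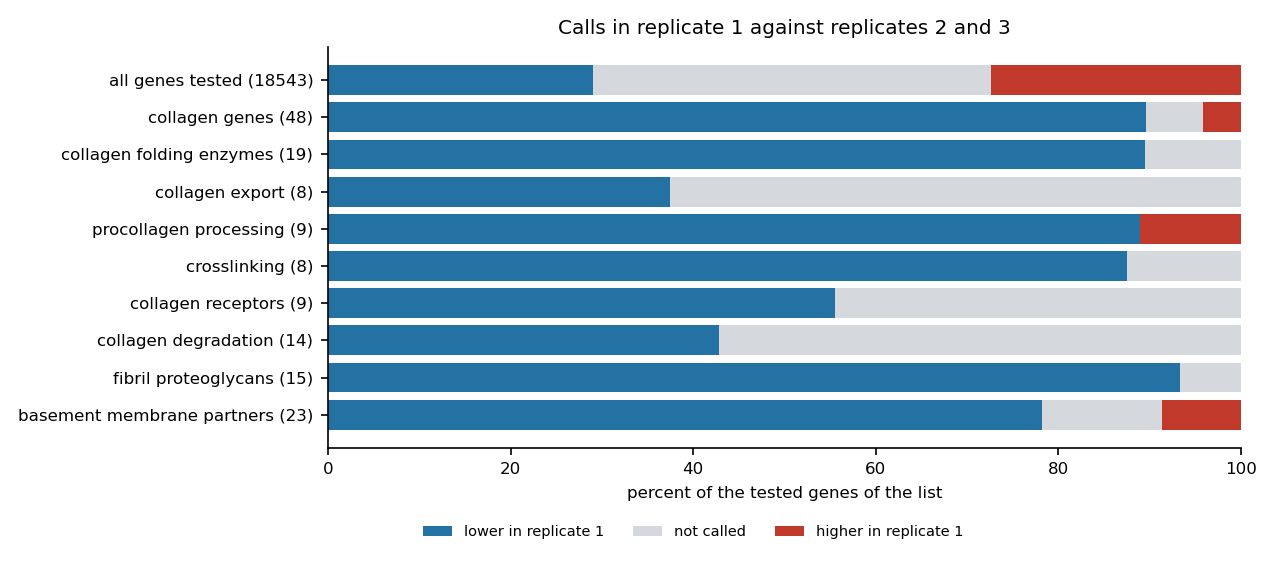
Share of the tested genes of each list (horizontal axis, percent; number of genes in brackets) that were lower, not called or higher at an adjusted p under 0.05 in libraries numbered 1 against those numbered 2 and 3. Of the collagen genes 43 of 48 were lower, against 29.0% of all genes tested.

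No collagen gene was called for any paraben. In the 9 comparisons with Control, the 9 between compounds at matched labels and the 3 between BMD5 and BMD5/50, 0 of 48 members had an adjusted p under 0.05 (edgeR quasi-likelihood test), and 0% of all genes tested did (0 of 18543 in each). The count of members was also 0 by DESeq2 and in the fit with the replicate number as a block. At an unadjusted p under 0.05 there were 2 values among the 432 of the comparisons with Control, and 4 among the 432 between compounds. Of all genes tested, 0.706% to 2.8% were higher and 0.523% to 2.72% lower at this threshold in single comparisons with Control. Between compounds 0.539% to 4.32% were higher and 0.674% to 2.67% lower. The median width of a 95% interval to either side was 1.03 on the log2 scale over the members, 0.59 for basement membrane, 1.01 for cartilage and 1.23 for fibrillar genes. These intervals come from the model without the replicate number, so the spread between libraries numbered 1 and the others is part of them.

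More members had fitted values above Control under EtP than under MtP, with no member past the test and the difference between the counts not tested. Under EtP 41 of 48 members were above Control at BMD5, 34 at BMD5/10 and 35 at BMD5/50, with median log2 fold changes of 0.22, 0.15 and 0.14. Under MtP 8, 14 and 18 members were above Control (medians −0.19, −0.13 and −0.05), and under PrP 29, 21 and 18 (0.03, −0.05 and −0.05). Over all genes tested 49.4% to 52.6% were above Control, with medians of −0.003 to 0.014. The comparisons share the 3 control libraries. All 10 cartilage genes were above Control under EtP BMD5/10 and BMD5/50, with class medians of 0.21 and 0.23, and 9 of 10 under EtP BMD5. Fibrillar genes were above Control in 6, 5 and 4 of 8 cases and basement membrane genes in 8, 6 and 7 of 9 under EtP BMD5, BMD5/10 and BMD5/50. By mean log2 CPM less Control, fibrillar genes were at −0.0004, −0.06 and −0.05 under these labels. Cartilage genes were at 0.25, 0.39 and 0.41, and basement membrane genes at 0.25, 0.12 and 0.10. Fibrillar libraries numbered 1 were at −0.31, −0.41 and −0.48 from the control numbered 1, and those numbered 2 and 3 were above theirs. For cartilage genes the libraries numbered 1 were at −0.04, −0.05 and 0.37, and for basement membrane genes at 0.08, −0.15 and −0.06. In both classes the libraries numbered 2 and 3 were above their controls. These means weigh each gene alike, col10a1a with its few reads included. Under MtP BMD5 7 of 8 fibrillar genes were below Control, with a median of −0.28.

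Marker lists were counted beside these values, and their part was not tested. Under EtP all 15 liver markers were above Control at each label, with medians of 1.88, 2.32 and 1.99. All 15 were also above Control at each PrP label (1.19, 0.97 and 1.26) and under MtP BMD5/10 and BMD5/50 (0.33 and 0.55), and 3 of 15 under MtP BMD5 (−0.10). Under EtP 19, 17 and 18 of 20 cartilage and bone markers were above it (0.20, 0.31 and 0.26). Under MtP 2, 9 and 12 of these 20 were above it, and under PrP 10, 11 and 8. Of 19 muscle markers 4, 2 and 2 were above Control under EtP, 0 at each MtP label, and 6, 0 and 0 under PrP. Of 21 epidermis markers 13, 7 and 7 were above it under EtP, 0, 1 and 1 under MtP, and 1, 1 and 7 under PrP. Among the lists of collagen partners, 9 of 9 procollagen processing genes were above Control under each EtP label, and 14, 13 and 14 of 15 fibril proteoglycans. Under MtP these counts were 4, 4 and 4 of 9 and 5, 8 and 12 of 15, and under PrP 6, 3 and 6 of 9 and 13, 12 and 11 of 15. None of the genes of any list had an adjusted p under 0.05 in the 21 comparisons.

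**Figure D4:**
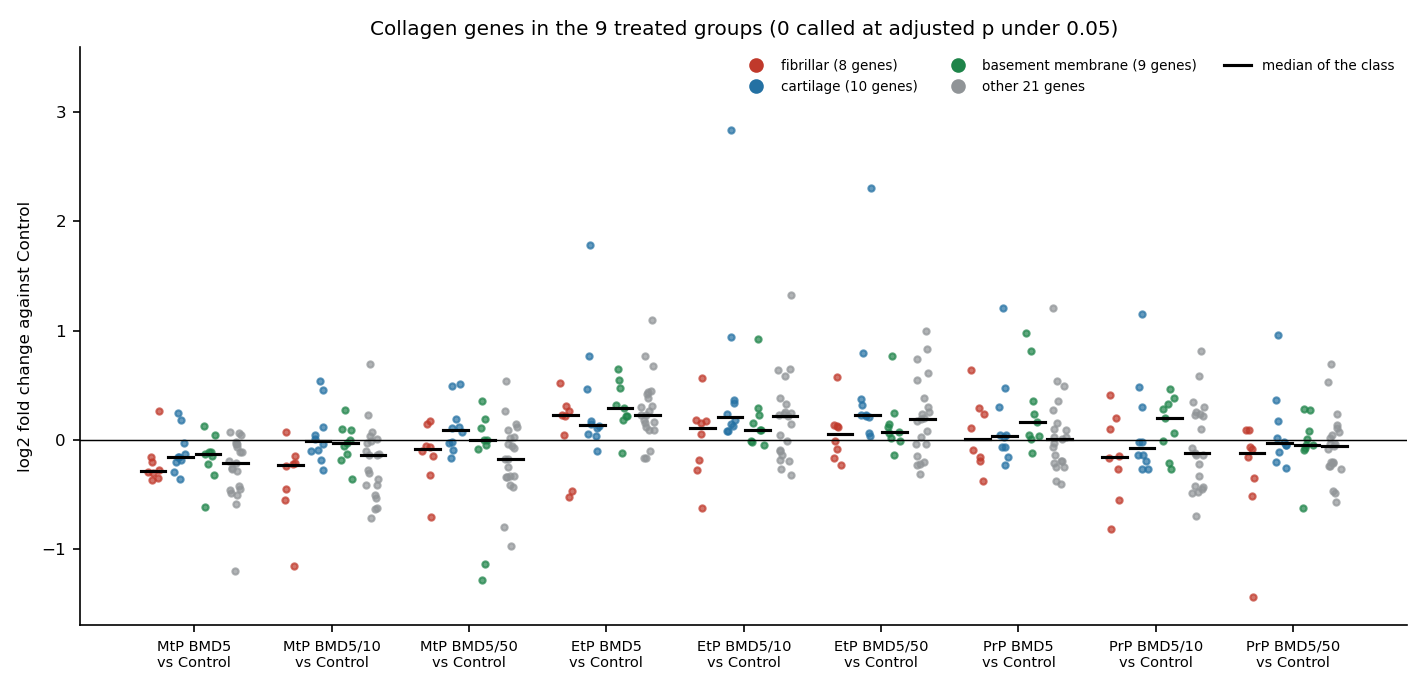
Log2 fold change against Control (vertical axis) of the collagen genes in the 9 treated groups; points are genes, colours classes and black bars class medians. Points gather near 0, with the fibrillar, cartilage and basement membrane medians of fitted values under EtP between 0.06 and 0.29. The highest point, col10a1a at 2.84, is under EtP BMD5/10.

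The member with the smallest p against Control was col10a1a, the type X gene. The control libraries numbered 1, 2 and 3 had 0.701, 1.07 and 0.941 CPM. Under EtP BMD5 the libraries had 0.282, 2.84 and 6.16 CPM, under EtP BMD5/10 0.394, 7.60 and 11.4, and under EtP BMD5/50 0.602, 3.13 and 9.46. In each EtP group the library numbered 1 was below all 3 controls and the other 2 were above them, so the groups overlapped. Under PrP BMD5, BMD5/10 and BMD5/50 the libraries had 0.638, 2.39 and 3.34, then 0.98, 2.52 and 2.57, then 0.591, 4.22 and 0.619 CPM. Under MtP the highest of the 9 libraries had 2.12 CPM. These values rest on few reads, 10 to 13 in each control library.

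For col10a1a the log2 fold change against Control was 1.78 ± 1.04 (SE) under EtP BMD5. It was 2.84 ± 1.04 under EtP BMD5/10, with a 95% interval of 0.70 to 4.98 (unadjusted p = 0.0115, adjusted p = 0.999), and 2.31 ± 1.03 under EtP BMD5/50, with an interval of 0.18 to 4.44 (unadjusted p = 0.0346). An unadjusted p under 0.05 with a higher value was found for 2.8% and 1.99% of all genes tested in these 2 comparisons. Leaving out 1 library at a time gave log2 fold changes between 2.14 and 3.38 at BMD5/10, between 1.08 and 2.79 at BMD5/50 and between 0.84 and 2.29 at BMD5. In the authors' deposited table, which tests transcripts, col10a1a-201 had a log2 fold change of 2.85 under EtP BMD5/10 with a p of 0.00376 and a q of 0.511, and of 2.29 under EtP BMD5/50. Of 109 member transcripts in the authors' deposited table, 0 had a q under 0.05 in any of the 9 comparisons. Without such a q, the authors' deposited table also marks as changed col14a1b-201 under MtP BMD5/50 (−1.13) and col1a1a-202 (3.76), col6a3-203 (2.66) and col9a1b-202 (1.58) under EtP BMD5/50. The shares of all deposited transcripts with such a q or such a mark are not given here. These counts and marks therefore cannot be read as particular to collagens.

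The other members with small p against Control gave wide intervals. Under EtP BMD5/10 the type IX gene col9a1a was at 0.95 ± 0.47 (SE; interval −0.02 to 1.91, unadjusted p = 0.0537), with 27.6, 73.0 and 82.3 CPM against 24.1, 40.2 and 30.8 in the controls. It was at 0.77 ± 0.47 under EtP BMD5 and 0.80 ± 0.46 under EtP BMD5/50. The type VIII gene col8a1b was at 1.33 ± 0.73 under EtP BMD5/10 and 1.098 ± 0.738 under EtP BMD5. The fibril-associated col14a1a was at −0.41 ± 0.22 under PrP BMD5 and −0.33 ± 0.22 under PrP BMD5/10. Under MtP the smallest p belonged to col28a2b at BMD5 (−1.20 ± 0.78), col27a1b at BMD5/10 (−1.16 ± 0.83) and col7a1l at BMD5/50 (−0.80 ± 0.54). None of these had an interval that left out 0.

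The most abundant members had group means whose libraries overlapped. Group means of col1a1a ran from 789 CPM under MtP BMD5 to 1135 under EtP BMD5, with 307, 867 and 1192 CPM in the libraries of the first and 511, 1290 and 1604 in those of the second. For col2a1a they ran from 702 CPM under MtP BMD5 to 908 under EtP BMD5/50. In every group but PrP BMD5 the library numbered 1 was the lowest for col2a1a, and in all 10 groups for col1a1a.

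**Figure D5:**
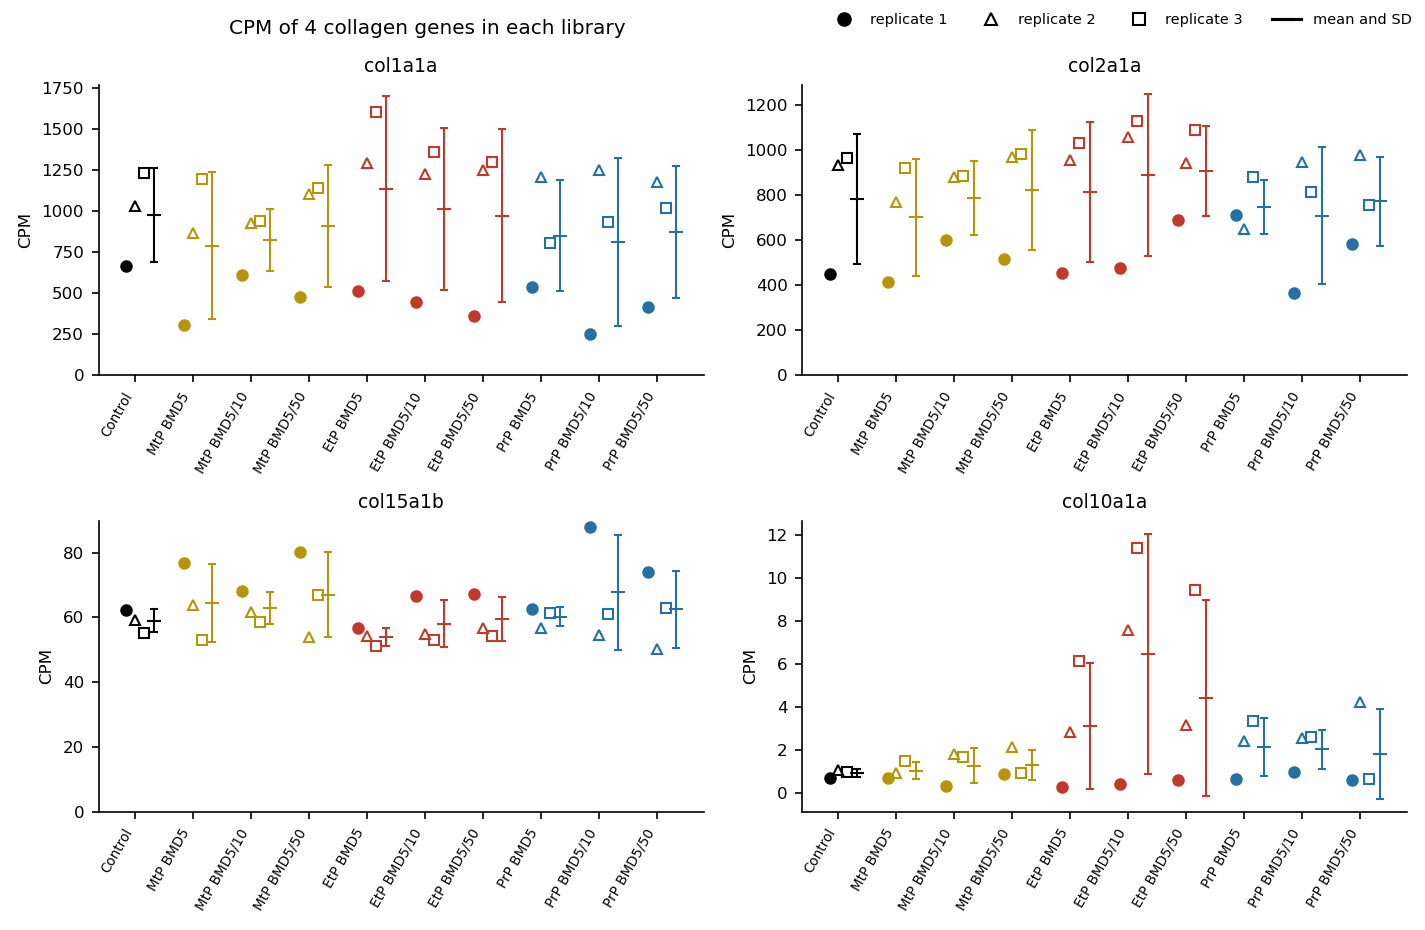
CPM (vertical axes, linear) of col1a1a, col2a1a, col15a1b and col10a1a in each of the 30 libraries by group; symbols mark the replicate number, colours the compound, and bars the mean and SD of 3 libraries. Replicate 1 is the lowest library for col1a1a and col10a1a in all 10 groups and the highest for col15a1b, and col10a1a reaches 11.4 CPM in an EtP BMD5/10 library while its controls stay at 1.07 or below.

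The compounds were compared at the same dose label in 9 pairs of groups, with p-values adjusted over all genes within each. EtP values were above MtP values for 44, 43 and 43 of 48 members at BMD5, BMD5/10 and BMD5/50, with medians of 0.45, 0.32 and 0.18. Over the members PrP was below EtP for 37, 38 and 41 (medians −0.21, −0.32 and −0.22), and above MtP for 44, 32 and 20 (0.23, 0.08 and −0.02). These counts were not tested, and the share of all genes is not given beside them. Members are also not independent of each other. In libraries numbered 2 and 3 the median correlation between genes of a class was 0.65 for cartilage, 0.37 for fibrillar and 0.22 for basement membrane genes. All 10 cartilage genes were above MtP under EtP at each label, as were all 15 liver markers, and 21, 20 and 16 of 21 epidermis markers at BMD5, BMD5/10 and BMD5/50; their part was not tested. By edgeR's quasi-likelihood test, the largest differences with an unadjusted p under 0.05 were col10a1a in EtP against MtP at BMD5/10 (2.39 ± 0.998, interval 0.32 to 4.45, adjusted p = 0.997) and col4a2 in EtP against MtP at BMD5/50 (1.91 ± 0.85, interval 0.15 to 3.67, adjusted p = 0.713). The others were col4a4 in EtP against MtP at BMD5 (0.64 ± 0.28) and col5a3a in PrP against MtP at BMD5/10 (0.86 ± 0.35). Higher values at this threshold were found for 1.88%, 4.32%, 2.13% and 0.539% of all genes in these comparisons. For col1a1a the difference between EtP and MtP at BMD5 was 0.53 with an interval of −0.71 to 1.76.

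Between the highest and lowest labels of a compound 0 members were called. BMD5 was above BMD5/50 for 11 of 48 members under MtP, 30 under EtP and 32 under PrP, with medians of −0.19, 0.10 and 0.06. Here too the counts were not tested and the share of all genes is not given. All 10 cartilage genes were lower at BMD5 than at BMD5/50 under MtP by their fitted values (median −0.24). Unadjusted p under 0.05 were those of col27a1b (2.09 ± 0.85) and col5a3a (0.81 ± 0.37) under PrP, both higher at BMD5, where 2.38% of all genes had such a value.

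The comparisons were repeated without the 10 libraries numbered 1, leaving 2 libraries in each group and 18855 genes tested. In 19 of the 21 comparisons 0 members were called, with at most 0.636% of all genes called (0.636% in EtP BMD5/50, 0.361% in EtP BMD5 against Control, 0.334% in EtP against MtP at BMD5 and 0% in the others). EtP BMD5/10 against Control gave 2 called members and 2.08% of all genes: col10a1a at 3.22 ± 0.69 (SE; adjusted p = 0.0221), with 7.60 and 11.4 CPM against 1.07 and 0.941, and col8a1b at 1.79 ± 0.40 (adjusted p = 0.0278), with 2.38 and 3.26 CPM against 0.909 and 0.706. EtP against MtP at BMD5/10 gave 1 called member and 2.56% of all genes, the type V gene col5a2a at 0.92 ± 0.22 (adjusted p = 0.0354), with 85.2 and 99.1 CPM against 53.0 and 44.0. For EtP against MtP the share of members called, 1 of 48, was near that of all genes. For EtP BMD5/10 against Control the share, 2 of 48, was above that of all genes but rested on 2 genes. In this fit 41 of 48 members under EtP BMD5, 36 under EtP BMD5/10 and 35 under EtP BMD5/50 were above Control, with medians of 0.33, 0.21 and 0.21. Under MtP BMD5 the number above Control was 15 in place of 8, and under PrP BMD5 24 in place of 29.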

How the data were processed

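Whole-larva RNA was sequenced in 30 libraries. The authors deposited read counts for 59876 transcripts, per the file headers, with RPKM and TPM made by the authors beside them; the aligner, counter and build were not stated in any source used. Also deposited were the authors' log2 fold changes with p-values and q-values for 9 comparisons with Control, per the file headers, by a test not stated. Columns headed PP were taken as propylparaben. Counts were summed per symbol, as were TPM and RPKM; 533 symbols combined several gene IDs.

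Counts were tested with edgeR 4.0.16 (R 4.3.3) by its quasi-likelihood test, with TMM scaling, a minimum count of 10 in its filter, 10 group means over all libraries, and Benjamini-Hochberg adjustment over the 18543 genes of each comparison. Replicate 1 was set against the mean of 2 and 3 in a model of group and replicate. No paralog or overlap correction was made. DESeq2 1.42.0 and other scalings, filters and sample sets were alternatives, and the edgeR script was tested on simulated data. Total counts limit the precision, and intervals come from the model.

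Whether replicates were separate clutches is not stated, and p-values therefore reflect variation among these libraries alone, possibly technical. Same-numbered libraries deviated together (every correlation over 0.1) in 14 of 21 comparisons. Members and lists were chosen with earlier results of these data known. Named members are the top 3 by control TPM in each main class, the top 1 in each other class, called members (at most 10 a direction), the 3 with the smallest p against Control, paralog and neighbour pairs, and the most and least variable. Named list genes are the 2 with the smallest p and the most expressed. The genes bmp1b, frem2a and timp2a were added after their values were seen, as were the other members given to complete a class. Sequence features were not analysed here.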

Additional observations from a re-analysis of the deposited data

Results flagged for a closer look

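The mean log2 CPM of the 9 basement membrane genes moved in opposite directions against Control under MtP and under the other parabens at BMD5. Less the control library of the same number, it was −0.29, −0.14 and −0.06 under MtP BMD5, and 0.08, 0.14 and 0.51 under EtP BMD5, a difference of −0.409 between the means. Under PrP BMD5 it was 0.10, 0.01 and 0.46, a difference of −0.355. All 3 libraries of each group lay on 1 side of the same-numbered controls, which drew attention to the pattern. Same-numbered libraries did not all deviate together in EtP BMD5 and PrP BMD5 against Control (lowest correlations −0.07 and 0.07). Without that subtraction the groups overlapped. The scores were 3.04, 3.51 and 3.43 in Control and 2.75, 3.36 and 3.37 under MtP BMD5. They were 3.12, 3.65 and 3.94 under EtP BMD5 and 3.14, 3.52 and 3.89 under PrP BMD5. The score weighs each gene alike, col4a1 and col4a2 near the floor included. The summed TPM of these genes, which are not scaled between libraries, did not repeat the pattern. They were 53.1, 46.4 and 44.4 in Control and 51.6, 51.7 and 48.1 under MtP BMD5. Under EtP BMD5 they were 49.8, 54.8 and 68.5, and under PrP BMD5 50.5, 54.75 and 36.6. Each treated group thus had libraries on both sides of the same-numbered controls. The difference in score was not tested, and the groups share their controls. The mean over all 48 tested members, less the same-numbered control, was −0.54, −0.23 and −0.01 under MtP BMD5. Under PrP BMD5 it was 0.06, 0.003 and 0.12, and under EtP BMD5 −0.09, 0.22 and 0.40. The split between MtP and PrP was thus not particular to basement membrane genes. At BMD5/50 the basement membrane means less Control were −0.15 under MtP, 0.10 under EtP and −0.18 under PrP.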

How the results depend on the processing

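The count of 0 called members held in all 21 comparisons of groups under RLE scaling, DESeq2, both filters, fits of the compared groups only and each of the 30 fits without 1 library (0 to 0). With the replicate number as a block in the fit of all 30 libraries, the count was 0 in all 21. The block thus changed no member's call there, whether or not the numbers paired the samples. Over all genes 1 of 18543 was called with the block in EtP against MtP at BMD5/10, against 0 without it. Without the libraries numbered 1 the count was 2 for EtP BMD5/10 against Control and 1 for EtP against MtP at BMD5/10. With the block added there, an alternative chosen after seeing the data, these were 3 and 2, the further members being col9a1a (1.13 ± 0.28, adjusted p = 0.0435 by edgeR) and col10a1a (2.45 ± 0.63, adjusted p = 0.0452). The share of all genes called with that block is not given, so the 3 and 2 cannot be set against it. Without the block it was 2.08% and 2.56% in these comparisons. The cause of the change in counts was not tested. In the contrast of replicates 45 members were called, and 41 to 45 under the alternatives (44 to 45 without 1 library), with 41 where 10 reads in 15 libraries were required, a filter that tests fewer genes. The value of col5a3a changed sign between fits, from −0.030 to 0.11. The call of col4a3 was also lost with no filter, and col19a1 was called without PrP BMD5 replicate 1. The all-gene median shifted by up to 0.02 under RLE. Ranks by RPKM differed from those by TPM in near ties alone. Genes such as col10a1a, with 10 to 13 reads in a control library, are limited by depth.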
